A study of Mus musculus with 38 samples.

Results

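The Lx elements are a lineage of LINE-1 retrotransposons found in rodent genomes. Their copies here were every annotated transposable element (TE) copy that the deposited tables assign to the L1 family and whose repeat name starts with Lx. This rule found 343298 copies in 21 families, of 3793386 TE copies in 1225 families overall. Lx copies made up 9.05% of all TE copies and 39.2% of the 875151 L1 copies. The rule used names only and no measured value. The families held between 1339 copies (Lx2A) and 57116 copies (Lx8), and Lx8, Lx9 (46554 copies) and Lx7 (34321 copies) were the largest. A further 51706 copies named L1Lx did not start with Lx and were not counted as members.

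LINE-1 elements copy themselves through an RNA intermediate that their own reverse transcriptase writes back into the genome. Most copies in a mammalian genome are truncated and old, and they can no longer move. LINE-1-rich, gene-poor DNA is a known feature of lamina-associated domains (LADs), the stretches of chromosome that lie against the nuclear lamina at the nuclear periphery. The lamina is a mesh of lamin proteins under the inner nuclear membrane, and the lamin B receptor (LBR) is a membrane protein that also tethers heterochromatin there. The files give no genome position or sequence for single copies, so copies are described by family and by signal.

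The study asked how loss of these tethers changes genome contacts with the periphery. CUT&RUN, in which an antibody directs a nuclease to cut and release the DNA near its target, was run for LAP2B, an inner nuclear membrane protein, in embryonic stem cells of the mouse in the naive state (mESCs) and in epiblast-like cells (EpiLCs). The mESCs were kept in 2i + LIF medium, and EpiLCs were made from them with 20 ng/mL FGF and 12 ng/mL Activin A. Cells of both kinds were collected at 48 hours, with 200000 cells per replicate. At each stage LAP2B was mapped in wild-type (WT) cells, LBR knockout cells (LBRKO), lamin triple knockout cells (TKO) and lamin plus LBR quadruple knockout cells (QKO), with 3 libraries per group. Lamin B1 (LMNB1) and a non-specific antibody (IGG, the background control) were mapped in WT cells of both stages, also with 3 libraries each. QKO cells were a single clone made from TKO cells, LBRKO cells were made from WT cells, and TKO and WT cells were littermate lines with chromosome abnormalities that the study describes. Nothing in the labels says that replicates came from separate cultures, so the spread behind p-values is at best that between libraries, which may be technical. In WT EpiLCs the study saw LAP2B signal outside LADs as well as in them and did not use LAP2B there to stand for LADs, which limits what the EpiLC values and the stage differences measure. CUT&RUN reads genomic DNA, so neither loss of the proteins nor cell identity was checked here. Libraries pool many cells, so fewer cells with a contact and less contact per cell cannot be told apart. The LBRKO, TKO and QKO comparisons of a stage share the same WT libraries. The 36 libraries held between 12028659 and 45689191 reads over the gene table, and the median Lx copy held 8 to 34 reads per library. Single copies are therefore read mainly as sums or means over many copies.

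A copy's value is its spike-in scaled coverage summed over the bins that it touches, so it grows with copy length, and levels of different families are not compared on it. Per library, the mean over all copies of a family was taken. On the spike-in scale this mean was used as deposited. On the relative scale it was divided by the value of the library's median TE family, so that 1 means the level of the median family. The spike-in scale is coverage already divided by library depth (RPKM), times a yeast spike-in factor. It follows total yield only between libraries of like depth. Depth could be read only as the sum over the gene table, which is not the total of mapped reads and also depends on where signal lies. In LAP2B libraries that sum ran from 12608484 to 41198400 reads. The relative scale shows how signal was shared among families. A family was called changed when limma, fitted to log2 values of all 1202 families with at least 10 copies, gave a Benjamini-Hochberg adjusted p below 0.05. All 21 Lx families were tested. Spike-in scale p-values used a spread that limma pooled over all families and in effect treated as known. Families of a library share the same spike-in factor and are not independent. Calls on that scale therefore overstate what the few libraries of a group can show.

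In WT cells Lx copies carried more lamina signal than the median TE copy. The ratio of LMNB1 to IGG at a copy, in which copy length cancels, had a log2 median of 0.35 over 324790 Lx copies with enough IGG reads in naive mESCs, against -0.21 over all TE copies. Of the Lx copies, 75.8% lay above the median of all TE copies. The younger mouse L1Md copies stood lower by their median, at 0.24, but had a larger share above the median TE copy, 77.8%. The ancient L1M copies at -0.09 and the B1 copies, short elements common in gene-rich DNA, at -0.60. LAP2B gave a like order, with a log2 median of LAP2B over IGG of 0.25 for Lx copies and -0.16 for all TE copies. By LAP2B, too, the L1Md median was lower (0.21) and the L1Md share above the median TE copy larger (74.7% against 71.9% for Lx). In EpiLCs the Lx median of LMNB1 over IGG was 0.39, with 76.8% of copies above the median TE copy against 79.6% of L1Md copies, and that of LAP2B over IGG was 0.22. These ratios join tables that were scaled separately, so the order of the groups is read rather than the size of a ratio.

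The Lx families differed among themselves in this ratio. In naive mESCs the family named Lx stood highest, with a log2 median of LMNB1 over IGG of 0.45 and 83.6% of its copies above the median TE copy. Lx6 (0.44), Lx2B (0.43) and Lx9 (0.43) followed closely. Lx8, the most numerous family, stood lowest at 0.14, with 65.0% of its copies above the median TE copy. Lx8 also had the smallest share of copies in the top 25% of all Lx copies by naive LMNB1 signal, 16.9%, against 35.4% for Lx2B, although that share also grows with copy length. The interquartile range of Lx8 copies ran from log2 ratios of -0.50 to 0.67, so spread within the family exceeded the differences between families.

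The Lx share of all TE signal in a library gave a first view of the mutants. In naive mESCs Lx copies held 11.5% ± 0.512 of LAP2B signal over TEs in WT cells (mean ± SD, n = 3). The share was 8.14% ± 0.237 in LBRKO, 9.43% ± 0.254 in TKO and 6.53% ± 0.451 in QKO cells. For comparison, LMNB1 put 12.3% ± 0.591 of its TE signal on Lx copies and IGG 9.15% ± 0.353. The share in QKO and LBRKO libraries thus lay below that of every naive IGG library, and the TKO libraries overlapped with IGG. EpiLC shares were 10.3% ± 0.401 for WT, 8.96% ± 0.0691 for LBRKO, 8.75% ± 0.107 for TKO and 8.23% ± 0.101 for QKO, beside 8.62% ± 0.231 for IGG. The mutant groups did not overlap with WT at either stage.

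**Figure D1:**
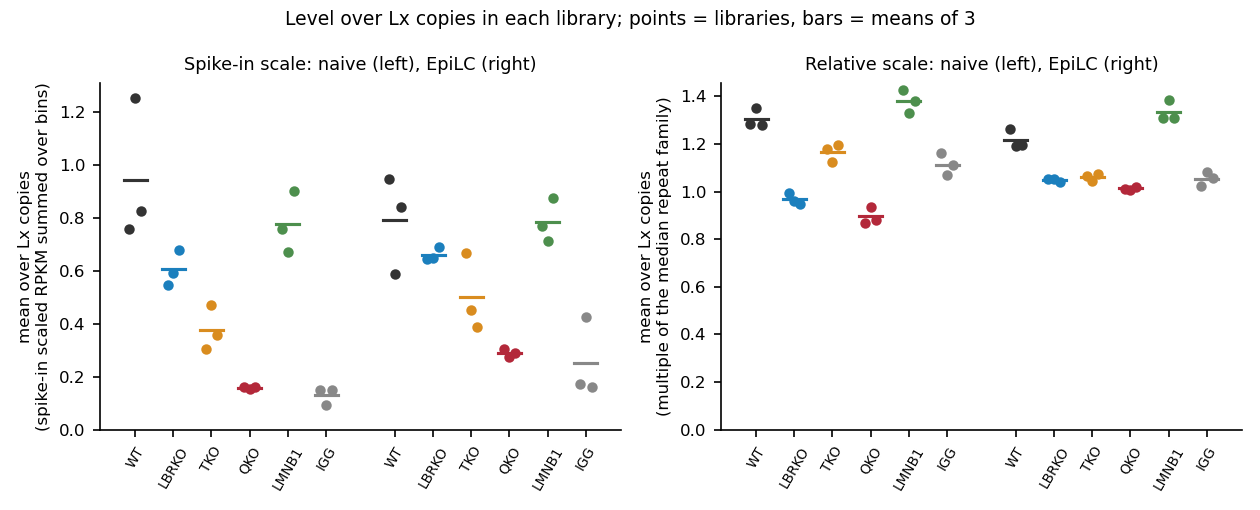
Mean level over all Lx copies in each library, in spike-in scaled RPKM summed over bins (left panel) and as a multiple of the median TE family (right panel), with naive groups on the left and EpiLC groups on the right of each panel; points are libraries and bars are means of 3. WT, LBRKO, TKO and QKO are LAP2B libraries, and LMNB1 and IGG are from WT cells. On the relative scale every mutant library lies below the WT libraries of its stage.

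On the spike-in scale the mean over all Lx copies was lower in each naive mutant than in WT. The 3 WT libraries stood at 0.757, 1.25 and 0.824. LBRKO libraries stood at 0.547, 0.591 and 0.679, below all WT libraries. These values were divided by depth. Reads over the gene table, which only stand in for depth, ran from 21908278 to 41198400 in LBRKO and 19264868 to 28566810 in WT. The part of depth in the difference was not tested. TKO libraries stood at 0.304, 0.472 and 0.356. QKO libraries stood at 0.162, 0.154 and 0.161, with almost no spread and near the IGG libraries at 0.149, 0.0930 and 0.151, though IGG was scaled in its own table. WT replicate 2 lay well above the other WT libraries.

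The matched tests on the spike-in scale counted family by family. In TKO cells all 21 Lx families fell, by a median of 1.23 on the log2 scale, but so did 99.6% of all families tested, whose median was -1.02. In QKO cells all 21 fell, by a median of 2.28 on the log2 scale, beside 99.8% of all families and an overall median of -1.75. The fall of Lx families on this scale was thus shared by nearly every TE family, and their medians were lower than the overall ones. In LBRKO cells 12 of 21 Lx families fell, with a median of -0.63, where 9.15% of all families fell and the overall median was -0.19. That count rested on single libraries: it was 0 without LBRKO replicate 1, without LBRKO replicate 2 or without WT replicate 2, and 20 without WT replicate 1, where 16.4% of all families fell. The count was also 0 when the deposited values were multiplied by each library's reads over the gene table, to undo the division by depth. Those reads only stand in for depth, so this is a rough check. Counts of 0 have no share of all families beside them here and are not read as particular to Lx.

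In EpiLCs WT libraries stood at 0.944, 0.589 and 0.840 on the spike-in scale. LBRKO libraries stood at 0.643, 0.649 and 0.691 and overlapped with them. TKO libraries stood at 0.666, 0.451 and 0.386 and overlapped with the WT libraries as well. These values, too, were divided by depth. Reads over the gene table ran from 20179767 to 33084949 in TKO and 18713693 to 29685074 in WT. The part of depth in this overlap was not tested. QKO libraries stood at 0.303, 0.274 and 0.288, below all WT libraries. No Lx family passed the test in LBRKO EpiLCs, where limma called 0.0% of all families and no Lx family had an unadjusted p below 0.05. In TKO EpiLCs 19 of 21 Lx families fell, with a median of -0.64 and 15.6% of all families lower. That count was 0 with the replicate number as a block, and 0 when values were multiplied by each library's reads over the gene table. It was also 0 without TKO replicate 2, TKO replicate 3, WT replicate 1 or WT replicate 3. Without TKO replicate 1 or without WT replicate 2 it was 21, where 97.9% and 94.8% of all families fell. The counts of 0 have no share of all families beside them here and are not read as particular to Lx. In QKO EpiLCs all 21 fell, with a median of -1.31, beside 99.9% of all families.

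On the relative scale, Lx families were lower in LBRKO than in WT naive mESCs. All 21 were called lower, with a median log2 change of -0.46 and a range from -0.59 (Lx3A) to -0.18 (Lx8). Of all families tested 41.9% were called lower and 31.0% higher. The young L1Md families fell with Lx, 25 of 25 with a median of -0.54. Of the 83 ancient L1M families 42 were called higher and 25 lower, and all 15 B1 families rose, with a median of 0.50. Lx families as a set were not tested against these groups.

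TKO cells had a median relative change nearer 0. Of the 21 Lx families 20 were called lower in naive mESCs, with a median of -0.18, where 20.9% of all families were called lower and 33.4% higher. The exception was Lx5c at 0.09 (SE 0.065, limma adjusted p = 0.24). The 20 called changes lay between -0.22 and -0.10, a narrow band in which even Lx8 was not far from the rest.

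Among the LAP2B groups the relative mean over all Lx copies was lowest in QKO cells, as were 20 of the 21 family means in naive mESCs, and Lx5c was lowest in LBRKO. All 21 families were called lower in naive mESCs, with a median of -0.57 and a range from -0.73 (Lx3A) to -0.20 (Lx5c), where 42.7% of all families were called lower and 38.2% higher. As a share of the WT level, the family means lay between 57.5% (Lx3A) and 86.7% (Lx5c), with a median of 65.1%. L1Md families fell with a median of -0.62, ancient L1M families had a median of 0.02, and B1 families rose with a median of 0.91.

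The size of these changes depended on the divisor. With each library divided by its median gene in place of its median TE family, all 21 Lx families were called lower in each naive mutant. The Lx median was then -0.80 in LBRKO, where 88.4% of all families were called lower and the overall median was -0.36. It was -0.67 in TKO, where 96.4% were called lower and the overall median was -0.46, so that TKO came close to LBRKO. For QKO it was -1.25, where 94.9% were called lower and the overall median was -0.70. LBRKO was not tested against TKO or QKO.

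Relative values by library show how the groups separated in the families with the strongest changes. The family named Lx stood at 1.46, 1.56 and 1.43 in the naive WT libraries. It stood at 1.01, 0.957 and 0.940 in LBRKO and at 1.29, 1.19 and 1.31 in TKO libraries. In QKO libraries it stood at 0.831, 0.903 and 0.838, below every naive IGG library (1.22, 1.11 and 1.14). No mutant group overlapped with WT. The QKO change was -0.73 (SE 0.038, limma adjusted p = 2.8e-12).

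Lx3A gave similar values, with 1.39, 1.49 and 1.36 in naive WT libraries and 0.786, 0.865 and 0.790 in QKO libraries. Its QKO change was -0.73 (SE 0.039, limma adjusted p = 3.5e-12), and its LBRKO change of -0.59 was the lowest of the 21.

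The 3 largest families held the most copies and moved less. Lx7 stood at 1.17, 1.23 and 1.17 in naive WT libraries and at 0.793, 0.859 and 0.790 in QKO libraries, a change of -0.49 (SE 0.036, limma adjusted p = 2.4e-10). Lx9 stood at 1.10, 1.18 and 1.10 in WT and at 0.744, 0.809 and 0.745 in QKO libraries, a change of -0.50 (SE 0.039, limma adjusted p = 6.3e-10). Lx8 stood at 1.08, 1.11 and 1.07 in WT and at 0.874, 0.916 and 0.871 in QKO libraries, a change of -0.26 (SE 0.021, limma adjusted p = 1.3e-09). In all 3 families the WT and QKO libraries were well apart, and the Lx8 change was the smallest of the 3.

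**Figure D2:**
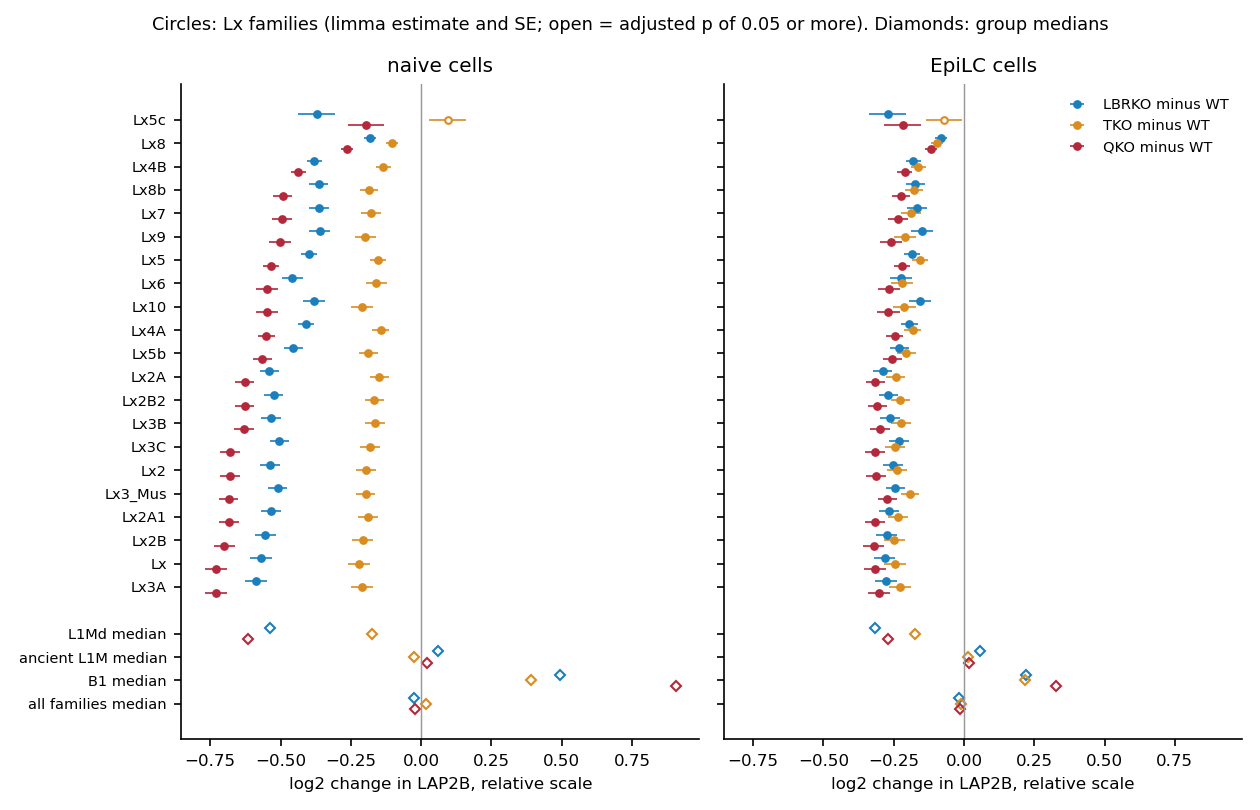
log2 change in LAP2B on the relative scale for the 21 Lx families (circles, limma estimate with SE; open circles did not pass an adjusted p of 0.05) in naive mESCs (left) and EpiLCs (right), for LBRKO, TKO and QKO minus WT, with medians of L1Md, ancient L1M, B1 and all families as diamonds. In naive mESCs QKO values run from -0.73 to -0.20 and LBRKO values from -0.59 to -0.18, while in EpiLCs the 3 genotypes lie close together.

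Sorted by the number after Lx, naive QKO changes fell into separate ranges. The family named Lx, the 5 Lx2 families and the 4 Lx3 families lay between -0.73 and -0.63. The Lx4, Lx5, Lx6, Lx7, Lx8, Lx9 and Lx10 families lay between -0.57 and -0.20, with no overlap between these sets. LBRKO showed the same split, with -0.59 to -0.50 for the first set and -0.46 to -0.18 for the second. In naive TKO cells and in LBRKO and TKO EpiLCs the ranges of the sets overlapped: naive TKO changes reached -0.15 in the Lx2 families and were -0.21 in Lx10. In QKO EpiLCs the ranges came close to each other without overlap. The split was noticed after the values were seen and has no test.

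Families with a higher WT ratio of LMNB1 to IGG tended to have more negative changes from WT in each mutant. Across the 21 families the naive QKO change and the naive median LMNB1 over IGG ratio had Pearson's r = -0.57 and Spearman's rho = -0.52, and r was -0.36 without Lx8. In QKO EpiLCs r was -0.91 and rho -0.85, and r was -0.83 without Lx8. For LBRKO and TKO in naive mESCs r was -0.68 and -0.31, and rho -0.47 and -0.66. Their EpiLC values were r = -0.75 for both, with rho of -0.60 and -0.89. Without Lx8, r was -0.43 and -0.24 in naive mESCs and -0.59 and -0.65 in EpiLCs. Leaving out copies with extreme background, described below, but keeping Lx8, naive r was -0.69 for LBRKO, -0.78 for TKO and -0.73 for QKO. In EpiLCs it was then -0.76, -0.94 and -0.93 in the same order. Families share libraries and can differ in copy length, so these are descriptions over 21 points and not replicates.

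**Figure D3:**
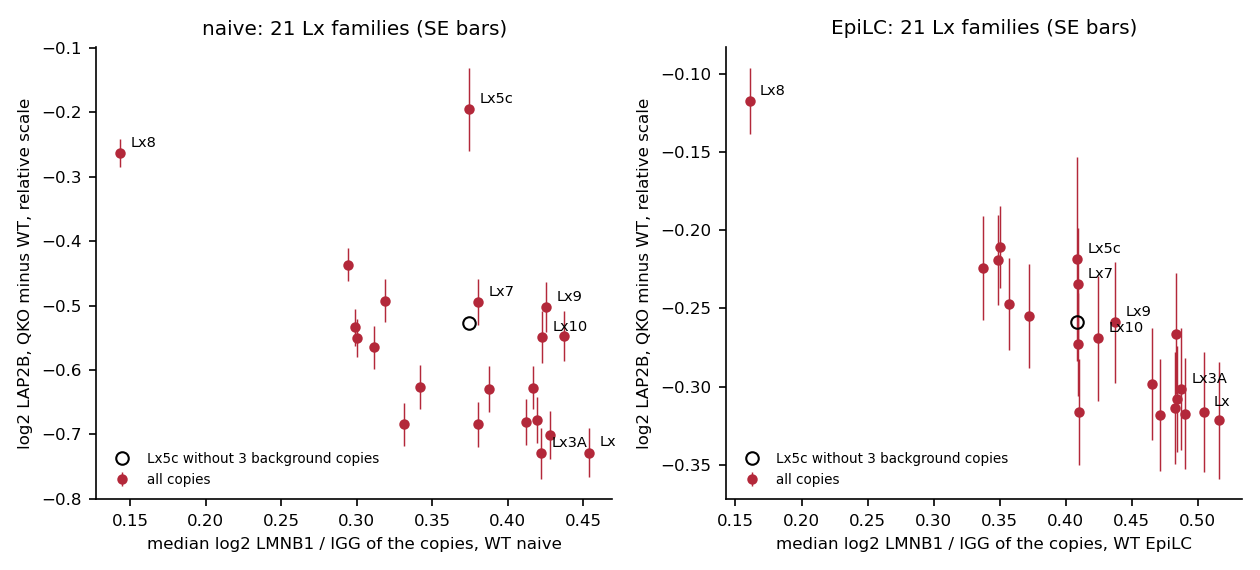
Each point is 1 Lx family, with the median log2 ratio of LMNB1 to IGG over its copies in WT cells on the x axis and the log2 LAP2B change in QKO on the relative scale on the y axis (bars are SE), in naive mESCs (left) and EpiLCs (right); y axes do not start at 0. Lx8 has the lowest ratio and, at both stages, 1 of the 2 smallest falls; open circles show Lx5c without 3 copies with extreme background.

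In EpiLCs the Lx families were again called lower in each mutant, with median changes nearer 0 than in naive mESCs for LBRKO and QKO but not for TKO. In LBRKO all 21 were called lower, with a median of -0.23, where 28.8% of all families were called lower and 19.0% higher. In TKO 20 were called lower, with a median of -0.21, where 18.5% of all families were called lower and 14.8% higher. Lx5c was the family not called, at -0.07 (limma adjusted p = 0.44). In QKO all 21 were called lower, with a median of -0.27 and a range from -0.32 (Lx2B) to -0.12 (Lx8), where 26.9% of all families were called lower and 22.7% higher. These counts depended on how a family was summarised: with the family median in place of the mean, 13 were called in LBRKO, 0 in TKO and 17 in QKO EpiLCs, and 9 in naive TKO cells, with median changes of -0.24, -0.23, -0.27 and -0.21. The shares of all families called lower were then 13.7%, 0.0832%, 6.91% and 5.07% in the same order. With division by the median gene 18 were called lower in LBRKO, with a median of -0.28, where 23.4% of all families were called lower and the overall median was -0.07. All 21 were called lower in TKO, with a median of -0.40, where 76.4% of all families were and the overall median was -0.19. All 21 were also called lower in QKO, with a median of -0.52, where 88.9% of all families were and the overall median was -0.27. The TKO median in EpiLCs was then nearer 0 than the naive one, unlike on the relative scale.

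The family named Lx stood at 1.38, 1.27 and 1.29 in WT EpiLC libraries, a little under its naive level. It stood at 1.07, 1.07 and 1.05 in LBRKO, at 1.09, 1.08 and 1.10 in TKO and at 1.03, 1.03 and 1.04 in QKO libraries. The LBRKO and QKO libraries lay within the range of the IGG libraries (1.02, 1.05 and 1.08), and the TKO libraries lay just above it. Lx8 moved least, from 1.07, 1.04 and 1.02 in WT to 0.948, 0.949 and 0.961 in QKO libraries, again with no overlap.

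The difference between stages was tested directly as an interaction. On the relative scale the LBRKO effect was called less negative in EpiLCs than in naive mESCs for 20 of 21 Lx families. The median difference was 0.23, and 14.3% of all families were called in that direction. The QKO effect was less negative for 20 of 21, with a median difference of 0.31, where 24.7% of all families did so. Lx5c was not called in either, although its LBRKO difference had the same sign as the others. For the TKO effect no Lx family passed, and none had an unadjusted p below 0.05 in limma, where 18.6% of all families passed in either direction. With the family median in place of the mean the LBRKO count was 0, where 0.0832% of all families passed in that direction, and the QKO count 10, where 5.32% did. With division by the median gene, most TE families moved in the same direction. The LBRKO count was then 21, with an Lx median of 0.52, where 83.4% of all families passed and the overall median was 0.29. The QKO count was 21, with an Lx median of 0.74, where 89.3% passed and the overall median was 0.42. The TKO count was 19, with an Lx median of 0.27, where 75.5% passed and the overall median was also 0.27.

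The stage differences came out otherwise on the spike-in scale. For LBRKO limma called no Lx family and 0.0% of all families, with an Lx median of 0.38 and no Lx family at an unadjusted p below 0.05. For TKO it also called none, and 0.0% of all families, but the Lx median was 0.59 and 11 of 21 Lx families had an unadjusted p below 0.05, as did 610 of all families, whose median was 0.58. For QKO all 21 Lx families had a less negative effect in EpiLCs, with a median of 0.98, where 60.2% of all families did and the overall median was 0.68.

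QKO was also compared with TKO, which shares the loss of lamins and differs by LBR. On the relative scale all 21 Lx families were lower in QKO than in TKO in naive mESCs, with a median of -0.41 and a range from -0.52 to -0.16, where 37.9% of all families were called lower. In EpiLCs limma called no family of any kind on this scale (0.0%), the Lx median was -0.07, and 8 Lx families had an unadjusted p below 0.05, as did 171 of all families. With division by the median gene all 21 were again lower in naive mESCs, with a median of -0.60, where 68.1% of all families were called lower and the overall median was -0.22. No Lx family was called in EpiLCs with that divisor, where 1 of all families was higher and 6 lower, and the Lx median of -0.14 stood beside an overall median of -0.07, with 4 Lx families and 169 of all families at an unadjusted p below 0.05. All 21 Lx families were lower in QKO at both stages on the spike-in scale. Their median was -1.08 in naive mESCs, where 95.1% of all families were lower with a median of -0.71, and -0.68 in EpiLCs, where 99.8% were lower with a median of -0.61. Whether the QKO minus TKO difference itself changed between stages was not tested.

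Among WT cells, LAP2B on the relative scale was lower in EpiLCs than in naive mESCs for 18 of 21 Lx families, with a median of -0.12, where 13.3% of all families were called lower. The families not called were Lx5c, Lx8 and Lx8b. LMNB1 called no Lx family, with a median of -0.06, 1 family at an unadjusted p below 0.05, and 0.915% of all families called in either direction. IGG called none either, but its Lx median was -0.11, 18 Lx families had an unadjusted p below 0.05, and 0.25% of all families were called in either direction. The median change of the background control was thus nearly that of LAP2B. Its part in the WT stage difference was not tested. The LAP2B count was 8 without WT naive replicate 2, where 6.91% of all families were called lower, and 8 without WT EpiLC replicate 2, where 4.99% were. With family medians it was 0, where 1.08% were. The LAP2B count was 21 with division by the median gene, with a median of -0.42, where 96.6% of all families were called lower and the overall median was -0.29. With that divisor IGG called 8 Lx families lower, with a median of -0.21, where 7.32% of all families were called lower and the overall median was -0.12. LMNB1 called none with it, with a median of -0.27 beside an overall -0.20, and 14 Lx families had an unadjusted p below 0.05. On the spike-in scale no Lx family was called for LAP2B (median -0.26, none at an unadjusted p below 0.05), nor was any other family (0.0%, with 12 of all families at an unadjusted p below 0.05).

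Set against the background control on the relative scale, 20 of 21 Lx families had all 3 naive WT LAP2B libraries above all IGG libraries, as did 30.9% of all families. In naive TKO cells 5 Lx families did so, a share below the 28.5% of all families. In naive LBRKO cells 20 Lx families had all 3 libraries below all IGG libraries, where 35.9% of all families did, and in naive QKO cells all 21 did, where 38.1% of all families did. In EpiLCs 20 Lx families stood above IGG for WT, where 26.0% of all families did, and 10 for TKO, where 9.07% did. For LBRKO 4 stood above IGG, near the 19.4% of all families, and for QKO none did, where 13.4% of all families did. In QKO EpiLCs 5 Lx families stood below IGG, where 11.1% of all families did. The LAP2B and IGG tables were scaled separately, so this is a description.

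The copies were then ranked by WT LMNB1 signal and cut into 4 classes of equal size. The lamina contrast is the log2 ratio of the mean LAP2B level in the top class to that in the bottom class. In naive mESCs it was 2.24 ± 0.130 for WT (SD, n = 3), 1.61 ± 0.0949 for LBRKO, 1.82 ± 0.106 for TKO and 1.12 ± 0.0346 for QKO. LMNB1 itself had 2.57 ± 0.0903 and IGG 1.51 ± 0.153, and copy length enters this ranking for any antibody. The same LMNB1 libraries made the ranking, so their contrast is set partly by it (2.28, beside 2.17 for WT LAP2B, when copies were ranked by EpiLC LMNB1). All 3 QKO libraries (1.09, 1.16 and 1.12) lay below all IGG libraries (1.69, 1.39 and 1.47). EpiLCs gave 1.97 ± 0.0853 for WT, 1.76 ± 0.0298 for LBRKO, 1.60 ± 0.0313 for TKO and 1.5 ± 0.0174 for QKO, beside 1.55 ± 0.0307 for IGG. No test was run on this score.

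With copies ranked by LMNB1 over IGG, in which length cancels, the contrast was 0.71 in naive WT cells, -0.14 in LBRKO, 0.07 in TKO and -0.75 in QKO cells, beside -0.65 for IGG. EpiLCs gave 0.24 for WT, -0.09 for LBRKO, -0.35 for TKO and -0.44 for QKO, beside -0.90 for IGG. Among the 4 genotypes WT was highest at both stages and QKO lowest under either ranking in group means. Against IGG the naive QKO libraries (-0.77, -0.67 and -0.82) overlapped with the IGG libraries (-0.77, -0.52 and -0.66) under this ranking, and in EpiLCs all 3 QKO libraries lay above all IGG libraries. IGG stands in the denominator of this ranking, so the IGG contrast is set partly by the ranking itself.

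By class, the naive QKO level on the relative scale, divided by that of WT, was 1.25 in the lowest class, 0.754 in the second, 0.618 in the third and 0.577 in the highest. LBRKO gave 1.04, 0.788, 0.717 and 0.672, and TKO gave 1.14, 0.923, 0.855 and 0.852. QKO over WT on the spike-in scale was 0.310, 0.186, 0.152 and 0.141 from the lowest class to the highest. Lx copies of the lowest class were thus lower in QKO than in WT cells on the spike-in scale. Relative to the median family they were higher, at 0.662 in QKO and 0.531 in WT, beside 0.667 for IGG. Copy length enters these classes. In EpiLCs QKO gave 1.06, 0.872, 0.828 and 0.764 on the relative scale and 0.465, 0.382, 0.362 and 0.334 on the spike-in scale.

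**Figure D4:**
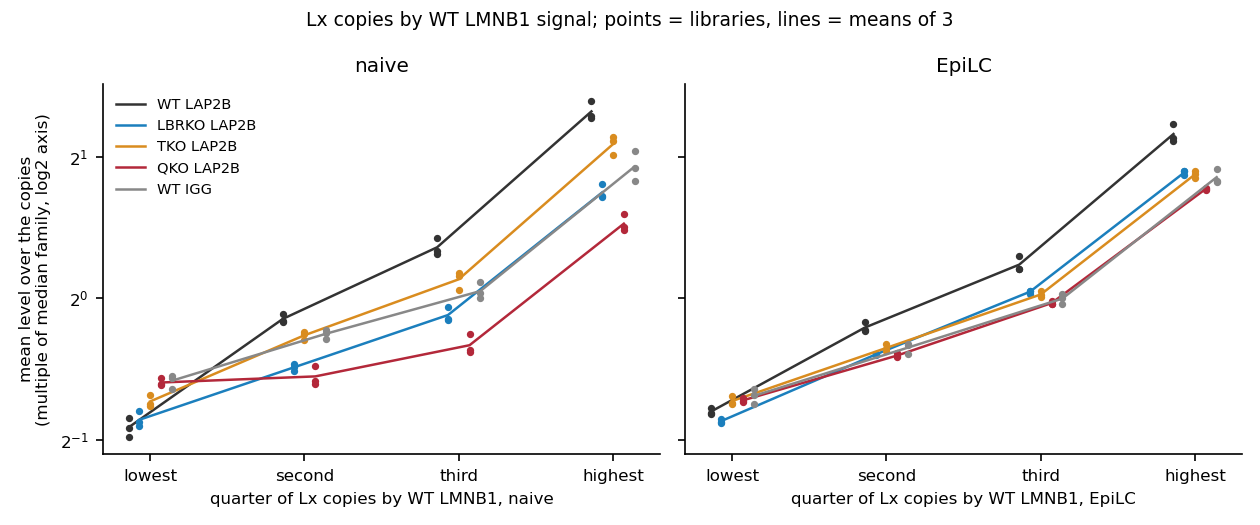
Mean level over Lx copies as a multiple of the median TE family (log2 axis) in 4 equal classes of copies ranked by WT LMNB1 signal of the same stage, for LAP2B in 4 genotypes and for WT IGG; points are libraries and lines join means of 3. In naive mESCs WT rises most steeply (lamina contrast 2.24) and QKO least (1.12), below IGG (1.51).

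Single copies were compared by whether the 3 mutant libraries all lay below, or all above, the 3 WT libraries on the relative scale. In naive QKO cells 134270 of 343204 Lx copies with signal (39.1%) lay below and 24620 (7.17%) above, where 22.6% of all TE copies lay below and 26.0% above. In naive LBRKO cells 32.3% lay below and 7.04% above, where the overall shares were 17.9% and 20.1%. In naive TKO cells 13.8% lay below and 5.89% above, beside 8.78% and 15.0% overall. Across the 21 families the share of copies below WT in naive QKO cells ran from 31.8% to 46.0%, under a majority in each family. Among EpiLCs, 18.0% of Lx copies lay below the WT libraries for LBRKO, 13.6% for TKO and 18.0% for QKO, where 11.4%, 7.89% and 10.3% of all TE copies did. Above the WT libraries lay 6.61%, 4.28% and 5.22% of Lx copies in the same order, where 11.6%, 10.2% and 15.0% of all TE copies did. Copies share bins: 64425 Lx copies (18.8%) had the same values as another Lx copy in all 36 libraries.

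Lx5c stood apart from the other families, and its value depended on a handful of copies. Of its 16980 copies, 3 had WT IGG values over 100 times that of the median TE copy. These copies, Lx5c_dup1907, Lx5c_dup1908 and Lx5c_dup1909, were singled out after their values were seen. In naive libraries they held 48.0% ± 5.67 of all Lx5c signal in IGG, 31.8% ± 4.86 in WT LAP2B, 34.8% ± 8.52 in LBRKO, 43.5% ± 6.36 in TKO and 47.3% ± 2.93 in QKO, but 20.2% ± 2.83 in LMNB1 (mean ± SD, n = 3). The highest, Lx5c_dup1909, was at 15078 times the median TE copy in naive IGG and at 10368 times in naive WT LAP2B.

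With all copies, Lx5c stood at 1.89, 1.93 and 2.06 in naive WT libraries. It stood at 1.98, 2.29 and 2.04 in TKO libraries, which overlapped with WT, and at 1.59, 1.75 and 1.76 in QKO libraries, which did not. Without the 3 copies the naive WT libraries stood at 1.32, 1.39 and 1.29 and the QKO libraries at 0.886, 0.932 and 0.874.

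Without such copies in any family (137 of all TE copies, 8 of them Lx), Lx5c lay within the range of the other families. Its naive TKO change was -0.16 (limma adjusted p = 0.00028) in place of 0.09, and its naive QKO change was -0.53 in place of -0.20. Its WT stage change was -0.14 in place of 0.12, and its EpiLC TKO change was -0.20 in place of -0.07. All 21 Lx families were then called lower in each of the 6 mutant comparisons, where 41.6%, 20.5% and 42.6% of all families were in naive LBRKO, TKO and QKO cells and 29.0%, 18.7% and 27.0% in EpiLCs. The stage difference was called in all 21 for LBRKO, where 14.5% of all families differed in that direction, and for QKO, where 25.0% did. Lx2B2 had 1 such copy, with 6.41% ± 1.41 of its naive IGG signal, Lx4B had 1 with 3.54% ± 2.16, Lx8 had 2 and Lx9 had 1 with under 1% each, and the other 16 families had none.

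**Figure D5:**
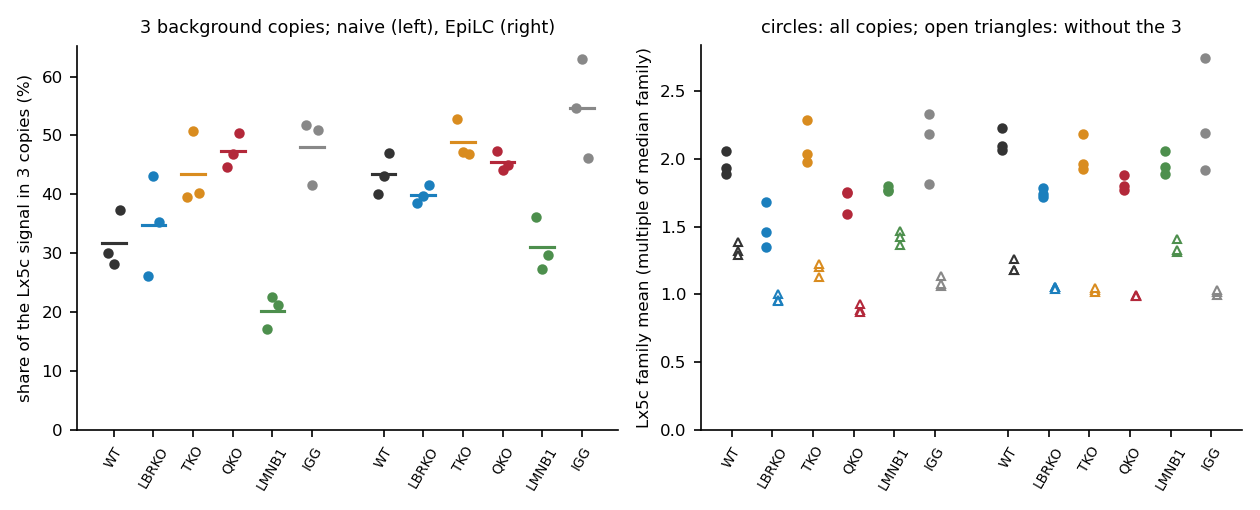
Share of all Lx5c signal held by 3 copies with extreme background (left) and the Lx5c mean as a multiple of the median TE family with all copies (circles) and without these 3 (open triangles) (right), for each library of each group; bars in the left panel are means of 3. The 3 copies held 48.0% of naive IGG signal and 20.2% of naive LMNB1 signal on average, and without them every naive QKO library lies below every naive WT and IGG library.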

How the data were processed

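The members and the lists were chosen with earlier results of these data known. Per the methods and the submitters' processing notes, the authors aligned reads with Bowtie2 2.3.5.1 and SAMtools 1.10 to mm39 (mouse) and sacCer3 (yeast spike-in), and the authors deposited spike-in scaled signal coverage (RPKM) per TE copy from deepTools, with regions of known artefact signal kept. The methods name 10 kb bins for TEs, but the steps between deposited values correspond to 1 kb. LAP2B, LMNB1 and IGG tables were scaled separately.

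Per library, copies were averaged by family. For the relative scale, values were divided by the median family with at least 10 copies. Families were tested with limma 3.58.1 (R 4.3.3) on log2(value + 0.1 of the median family mean), which understates changes of low families, with 24 LAP2B libraries in 1 model of 8 group means and LMNB1 and IGG in models of 6 libraries each. Benjamini-Hochberg adjustment covered 1202 families, and 23 families with fewer copies were left out. LMNB1 over IGG was read at copies with at least 20 IGG reads. Replicate numbers were taken to pair libraries where same-numbered libraries deviated together from their group means in all 3 pairs (correlation above 0.1 over families). This held in 1 of 11 pairs of groups, naive QKO and naive WT LAP2B (0.150, 0.266 and 0.191), and rests on the data, not on a label. The code was tested on simulated data. Library values are given for the 3 families with the most copies and the 2 with the lowest and the 2 with the highest naive QKO change. Alternatives were pseudocounts, filters, family medians, other scalings, a replicate block and each library left out. Leaving out copies with extreme IGG was added after seeing the data. H3K9me3 samples (2) were not analysed here.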

Additional observations from a re-analysis of the deposited data

Results flagged for a closer look

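Mutant effects that differed between naive mESCs and EpiLCs, by limma's test of the interaction on the relative scale, are given with their log2 difference (EpiLC minus naive, 3 libraries per group, adjusted p by Benjamini-Hochberg over 1202 families). For the LBRKO effect 20 of 21 Lx families differed, all towards a less negative value in EpiLCs, where 14.3% of all families did so. The difference was 0.31 for Lx3A, 0.29 for the family named Lx (adjusted p = 0.0012), 0.21 for Lx9, 0.20 for Lx7 (adjusted p = 0.0082) and 0.10 for Lx8 (adjusted p = 0.022).

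For the QKO effect 20 of 21 Lx families differed in the same direction, where 24.7% of all families did. The difference was 0.43 for Lx3A, 0.41 for the family named Lx, 0.26 for Lx7, 0.24 for Lx9 and 0.15 for Lx8. Lx5c did not pass in either case, with 0.10 (adjusted p = 0.44) for LBRKO and -0.02 (adjusted p = 0.85) for QKO, and it passed in both without its 3 copies of extreme background, with 0.24 and 0.27. WT libraries enter both stage differences and are shared between the LBRKO and QKO comparisons. With family medians in place of means no Lx family passed for LBRKO (0.0832% of all families) and 10 passed for QKO (5.32% of all families), while the median differences were 0.26 and 0.30. With division by the median gene all 21 passed for both, where 83.4% and 89.3% of all families did. On the spike-in scale no Lx family passed for LBRKO, where 0.0% of all families did, and all 21 passed for QKO, where 60.2% did.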

How the results depend on the processing

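Of 312 alternative counts of called Lx families, 289 stayed within 1.5 times the reported count and none reversed. With family medians over copies in place of means, 9 families were called in naive TKO, 13 in EpiLC LBRKO, 0 in EpiLC TKO, 0 in the WT LAP2B stage comparison, and 0 and 10 in the stage differences of LBRKO and QKO, and 20 in naive LBRKO on the spike-in scale, where 22.5% of all families were called lower. That last count was 19 with a pseudocount of 1 times the median family mean. It was 0 when values were multiplied by each library's reads over the gene table, which also gave 0 for EpiLC TKO. Shares of all families with family medians are given here or with the results above. They are not given for the pseudocount or for the values multiplied by reads, so those counts are not read as particular to Lx. Division by the median gene gave 8 for WT IGG between stages (7.32% of all families) and 19 for the stage difference of TKO (75.5%). Leaving out each library gave 0 to 20 in naive LBRKO and 0 to 21 in EpiLC TKO on the spike-in scale, and 8 to 20 for WT LAP2B between stages. The share of all families called moved as well, as given above for some of these fits. The cause of these shifts was not tested.

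With the replicate number as a block, EpiLC TKO on the spike-in scale gave 0 families, naive LBRKO 10 and the WT LAP2B stage comparison 17. The shares of all families under the block are not given here, so these counts are not read as particular to Lx. In 10 of 11 pairs of groups the numbers did not pair the libraries. In naive QKO against WT they met the criterion given in the methods, and the block changed no call there, with 21 families called on either scale.

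The naive TKO change of Lx5c was -0.21 with family medians, -0.16 without background copies, -0.020 after division by the mean of all TE copies and -0.41 by the median gene. Its WT stage change was -0.15 with family medians, -0.14 without background copies and -0.19 by the median gene. Its QKO stage difference was 0.30, 0.27, 0.17 and 0.42 in the order given for TKO, and ranged from -0.066 to 0.0075 over the libraries left out, being above 0 without QKO naive replicate 3, WT EpiLC replicate 3 or WT naive replicate 1.

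As a mean over families, relative levels were 1.39 in naive WT, 1.24 in naive TKO, and 1.28, 1.08, 1.10 and 1.05 in EpiLC WT, LBRKO, TKO and QKO. Lamina contrasts with copies ranked by LMNB1 over IGG were 0.71, -0.14, 0.073 and -0.75 in naive WT, LBRKO, TKO and QKO, and 0.24, -0.092, -0.35 and -0.44 in EpiLCs. Ranked by LMNB1 of the other stage, they were 1.28 in naive QKO and 1.85, 1.62, 1.41 and 1.30 in EpiLCs. With class medians they were 1.19 and 1.87, 1.63, 1.43 and 1.37. With 1 library fewer, copies without overlap made up 28.0% to 31.4% in naive TKO, and 33.7% to 37.2%, 27.1% to 29.9% and 32.4% to 36.0% in EpiLC LBRKO, TKO and QKO, since fewer libraries overlap less often. Over all TE copies the ranges were 31.4% to 35.0%, 32.1% to 34.7%, 27.1% to 30.1% and 34.2% to 37.6% in the same order. At 8 to 34 reads per median copy, single copies were not resolved.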
